A study of Rattus norvegicus with 4 samples.

Results

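The cytosolic ribosome of rat INS-1 832/13 β-cells is described here through the mRNAs of its protein subunits. Members were the protein-coding rows whose symbol is Rpl, Rps or Rplp followed by a number and at most 1 letter, plus Rpsa, without the S6 kinase genes. This gave 72 of 15172 listed genes, 43 of the large subunit and 29 of the small subunit. The INS-1 832/13 line is a rat insulinoma line that makes insulin, so every sample comes from the same transformed line. Cells were transfected for 36 h with a non-targeting siRNA pool (siScramble, control) or with an siRNA pool against Tbk1 (siTbk1), a serine/threonine kinase of innate immune signalling, and polyadenylated RNA was sequenced with strand-marking libraries from 2 samples of each group, which carry the replicate numbers 2 and 3. The labels do not say whether the samples of a group were separate cultures, so p-values measure the spread between these samples, which may be technical. Tbk1 itself was at 53.7 and 52.5 CPM (reads per library of 1000000, after TMM scaling) in the siScramble samples and at 11.8 and 13.3 CPM in the siTbk1-treated samples, a log2 fold change of -2.08 ± 0.076 (SE).

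A ribosome holds a single copy of most of its proteins, apart from the acidic stalk proteins, and cells make them in matched amounts. The small subunit reads the mRNA and the large subunit joins the amino acids. In vertebrates, ribosomal protein mRNAs begin with a C followed by an unbroken run of pyrimidines, the 5′ terminal oligopyrimidine (TOP) motif, through which mTOR signalling controls how heavily they are translated. The insulin-producing β-cell depends on this machinery because it translates large amounts of preproinsulin. Ribosomal protein genes also have many processed copies in mammalian genomes, so short reads can match several places.

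Windows of 30 bases, from 20 before to 10 after the first base of the mRNA, are shown for members that moved in different ways, because this is where the TOP motif would lie. They come from RefSeq on the GRCr8 build, which is not the rn6 build of the counted genes, and are written 5′ to 3′ on the strand of the gene. Capitals mark the longest run of C and T that starts with C, and the annotated first base of the mRNA follows the 20 upstream bases.
Rps2 (chr10:14251828-14251857, plus strand): gCCTCCCTCTTCTTTTTCTTCgggaaaaca
Rplp1 (chr8:71290863-71290892, minus strand): tgcgcgcaggcgcatgtgatCCTTTCCTCa
Rpl29 (chr8:115947623-115947652, plus strand): acagcgggCCTTTCTCTTTCTCTTCCggtc
Rps15 (chr7:10068106-10068135, minus strand): gcagccgctgacaccgCTTCCTTTTCCCag
Rplp0 (chr12:46718381-46718410, minus strand): ctggtgaccgcaccgcaCTTCTCTCgccag
Rps24 (chr16:96497-96526, plus strand): ggcagtgagcggtCCTCTTTTCCTCCTTTa
Rpl5 (chr14:1995216-1995245, minus strand): cagccaCTCTCTTTCCCacgtcgcttgcgt
Rps27l (chr8:76443638-76443667, plus strand): ttatagtttattCatttgtcattatttgtg
In this window the longest run was 20 bases in Rps2, 18 in Rpl29, 16 in Rps24 and 12 in Rps15. It was 11 in Rpl5, 9 in Rplp1, where it began exactly at the annotated start, 8 in Rplp0 and 1 in Rps27l.

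The promoter table held 58 entries for 57 of the 72 members. A C at the annotated start followed directly by at least 4 further pyrimidines was found in 31% of the member entries and in 2.63% of all 33469 entries. A run of at least 7 pyrimidines that began with C within 20 bases of the start, on the strand of the gene, was found in 72.4% and 20.4%. Members without an entry included Rpl7, Rpl8, Rpl15, Rpl23a, Rpl27, Rpl30, Rpl32, Rps20, Rps25 and Rps29.

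To see how the ribosomal protein mRNAs stood after depletion of Tbk1, counts were compared between siTbk1-treated and siScramble cells. Most members that changed were lower in siTbk1-treated cells, by modest amounts. The members together took 2.86% and 2.92% of all counts in the siScramble samples and 2.53% and 2.46% in the siTbk1-treated samples. Both siTbk1-treated samples were below both control samples, and the ratio of the group means was 0.862. After scaling, the summed level of the 69 members that passed the filter on low counts was 28292 and 28634 CPM in control cells against 25648 and 25069 CPM in siTbk1-treated cells. In bulk RNA, a lower level in every cell and a loss of some cells with a high level cannot be told apart. Total counts lay between 38428926 and 47759013 per sample, where 3 counts correspond to 0.0628 to 0.0781 CPM, and the larger totals were those of replicate 2 in both groups.

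Of the 69 tested members (41 large and 28 small), 38 fell and 4 rose at an adjusted p under 0.05, against 24.8% lower and 24.4% higher among all 13953 tested genes. These are 55.1% and 5.8% of the members. The remaining 27 did not pass. The log2 fold change was below 0 for 55 members (49.2% of all tested genes), and its median was -0.19, with quartiles of -0.43 and -0.027, where the median over all tested genes was 0.0071. Both siTbk1-treated samples lay below both control samples for 42 members (37.9% of all tested genes) and above them for 8 (38.7% of all tested genes). With a fold change of at least 1.5 required as well, 8 members were called lower and 1 higher, where 6.18% and 4.81% of all tested genes were called. The members not tested were Rpl3l, with 0 to 5 counts per sample, Rpl8, with 4.81 to 12.5, and Rps29, with 5.25 to 9.42.

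**Figure D1:**
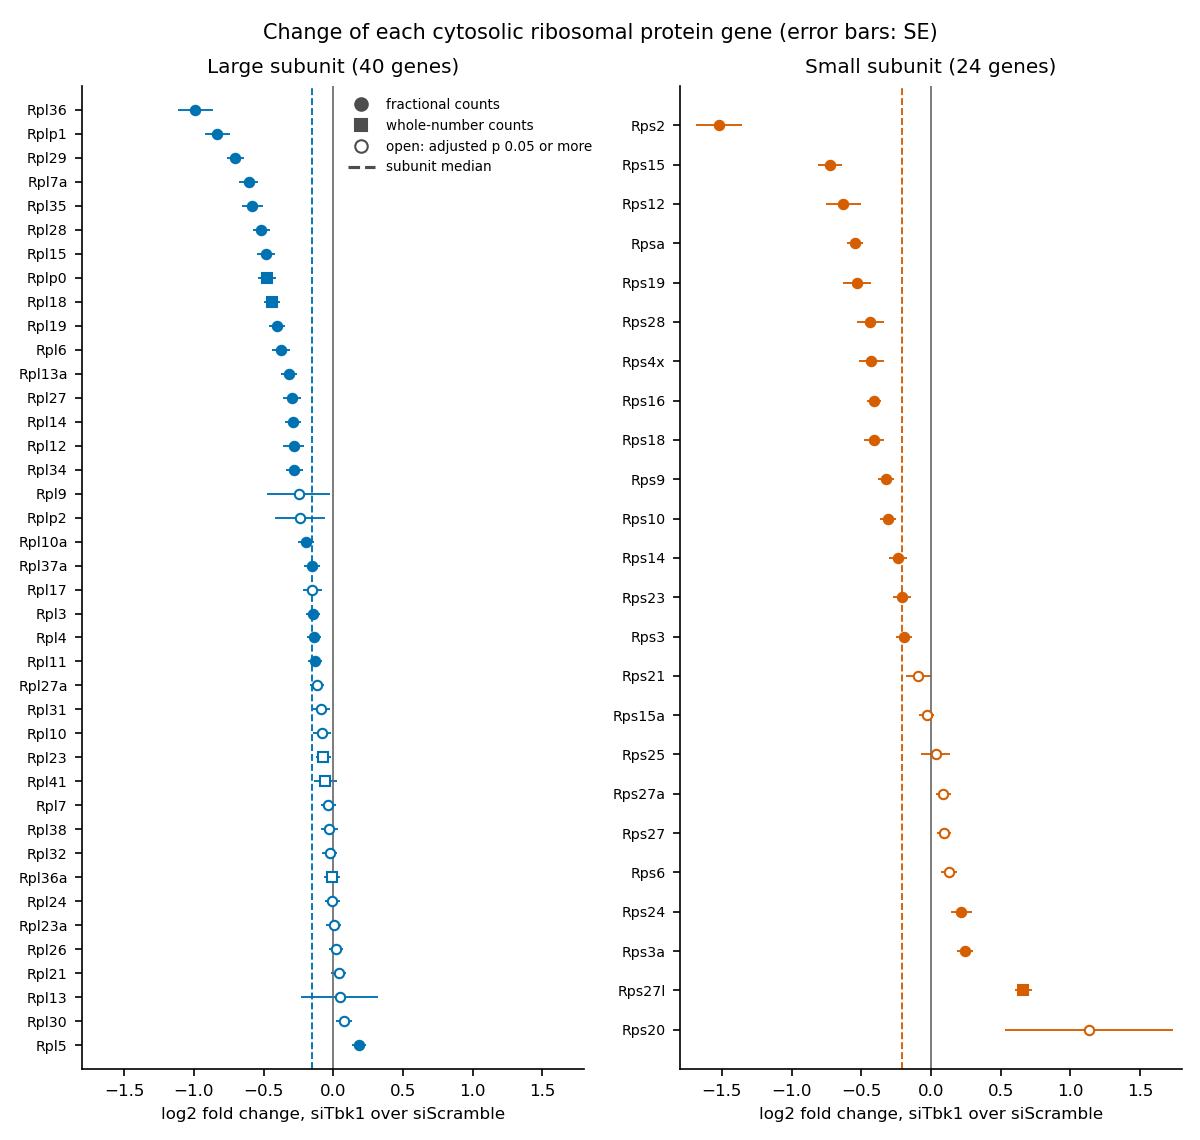
Log2 fold change (siTbk1 over siScramble, horizontal axis, with SE) of 40 large subunit and 24 small subunit genes, ordered by size. Filled symbols passed an adjusted p of 0.05, squares are genes with whole-number counts, and dashed lines mark the medians over all tested genes of each subunit, -0.15 and -0.21. Most filled symbols lie left of 0, Rps2 lies lowest at -1.52, and the filled symbols right of 0 are Rpl5, Rps24, Rps3a and Rps27l.

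Genomic span was read beside this result. Most members are short genes. The median span of the tested members was 2875 bp from start to stop, introns included, against 20091 bp over all tested genes. Among all 2767 tested genes spanning up to 5000 bp, 28.3% fell and 13% rose, with a median log2 fold change of -0.091. For the 58 members within that span, 31 fell and 3 rose, with a median of -0.22. Across all 69 tested members, log2 fold change and span correlated at 0.068 (Spearman). With 58 of them within 5000 bp, this value cannot show how change and span relate over the range of all genes. When the trend of each library along genomic span was removed, 28 members fell and 7 rose, against 23.6% in each direction over all genes, and the median of the members was -0.089.

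**Figure D2:**
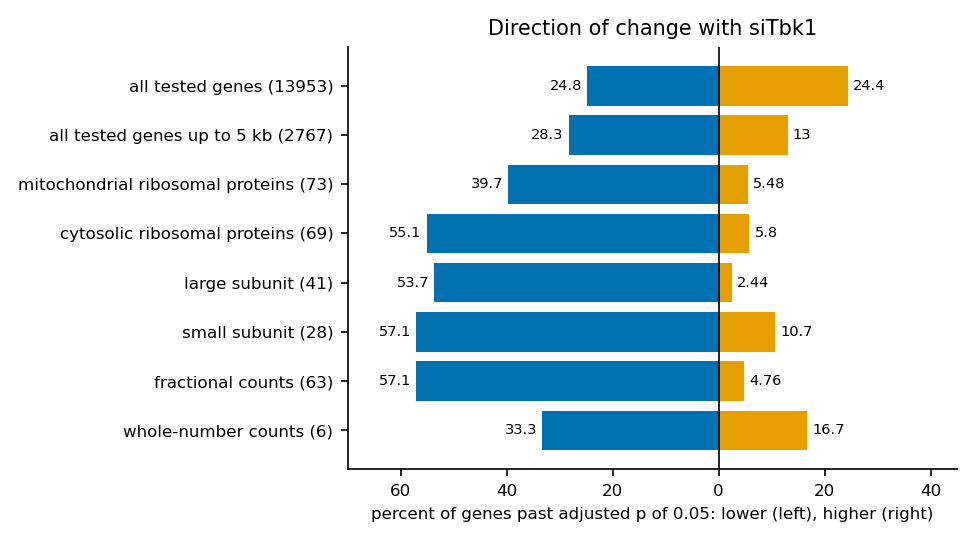
Percentage of genes past an adjusted p of 0.05 that were lower (left bars) or higher (right bars) with siTbk1, with the number of tested genes in parentheses. The cytosolic ribosomal protein genes reach 55.1% lower and 5.8% higher, all tested genes 24.8% and 24.4%, and all genes of up to 5 kb 28.3% and 13%.

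Rps2, a protein at the entry of the mRNA channel of the small subunit, had the lowest fold change. Its row (rn6 chr10:14088319-14089980, plus strand) was at 94.2 and 130 CPM in siScramble samples and at 46.8 and 30.8 CPM in siTbk1-treated samples, a log2 fold change of -1.52 ± 0.16 (SE, adjusted p = 2.5e-05). The groups did not overlap. This row holds only a small part of the reads of Rps2-like sequence, as described with the copies. Rps15, a small subunit protein near the decoding site, was at 193 and 237 CPM in control cells and at 138 and 122 CPM after siTbk1, a log2 fold change of -0.73 ± 0.087 (adjusted p = 4.8e-05). Without siScramble replicate 3 its log2 fold change was -0.57, inside the fold limit. Rps12, in the beak of the small subunit, was at 12.1 and 13.4 CPM against 9.27 and 7.02 CPM, a log2 fold change of -0.63 ± 0.13 (adjusted p = 0.0013). It was inside the fold limit without siScramble replicate 3 (-0.56) and without siTbk1 replicate 3 (-0.45).

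In the large subunit, Rpl36 was at 9.81 and 11.6 CPM in control cells and at 5.82 and 4.87 CPM in siTbk1-treated cells, a log2 fold change of -0.99 ± 0.13 (adjusted p = 7.1e-05). Rplp1, an acidic protein of the stalk that recruits translation factors, was at 155 and 190 CPM against 104 and 89.5 CPM, a log2 fold change of -0.83 ± 0.092 (adjusted p = 2.9e-05). The groups were apart for both genes, and the control sample with replicate number 3 was the highest of the 4 samples in each. Rpl29 was at 173 and 193 CPM against 116 and 109 CPM, and its log2 fold change was -0.70 ± 0.063 (adjusted p = 7.4e-06). It again had its highest level in siScramble replicate 3 and its lowest in siTbk1 replicate 3. Rpl7a, whose introns host small nucleolar RNAs, was at 59.4 and 54.0 CPM against 38.2 and 36.3 CPM, a log2 fold change of -0.61 ± 0.068 (adjusted p = 3.1e-05). Its log2 fold change fell inside the limit without siScramble replicate 2 (-0.53) and without siTbk1 replicate 3 (-0.57). The row counted as Rpl7a spans 594351 bp (rn6 chr3:4867233-5461584), unusually long for a member, and has fractional counts. Whether all its reads come from Rpl7a was not tested.

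The member called higher was Rps27l, a near twin of Rps27. Its row (rn6 chromosome 8) holds whole-number counts, so no division of its reads shows in the values. It was at 38.6 and 39.7 CPM in control cells and at 62.6 and 61.2 CPM in siTbk1-treated cells, a log2 fold change of 0.66 ± 0.060 (adjusted p = 7.9e-06). Each group was tight, and the log2 fold change stayed between 0.63 and 0.68 when any sample was left out. Rps27 was at 331 and 329 CPM against 352 and 352 CPM, a log2 fold change of 0.093 ± 0.049 that did not pass (adjusted p = 0.14). With the trend along genomic span removed, Rps27 passed (0.20, adjusted p = 0.016).

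**Figure D3:**
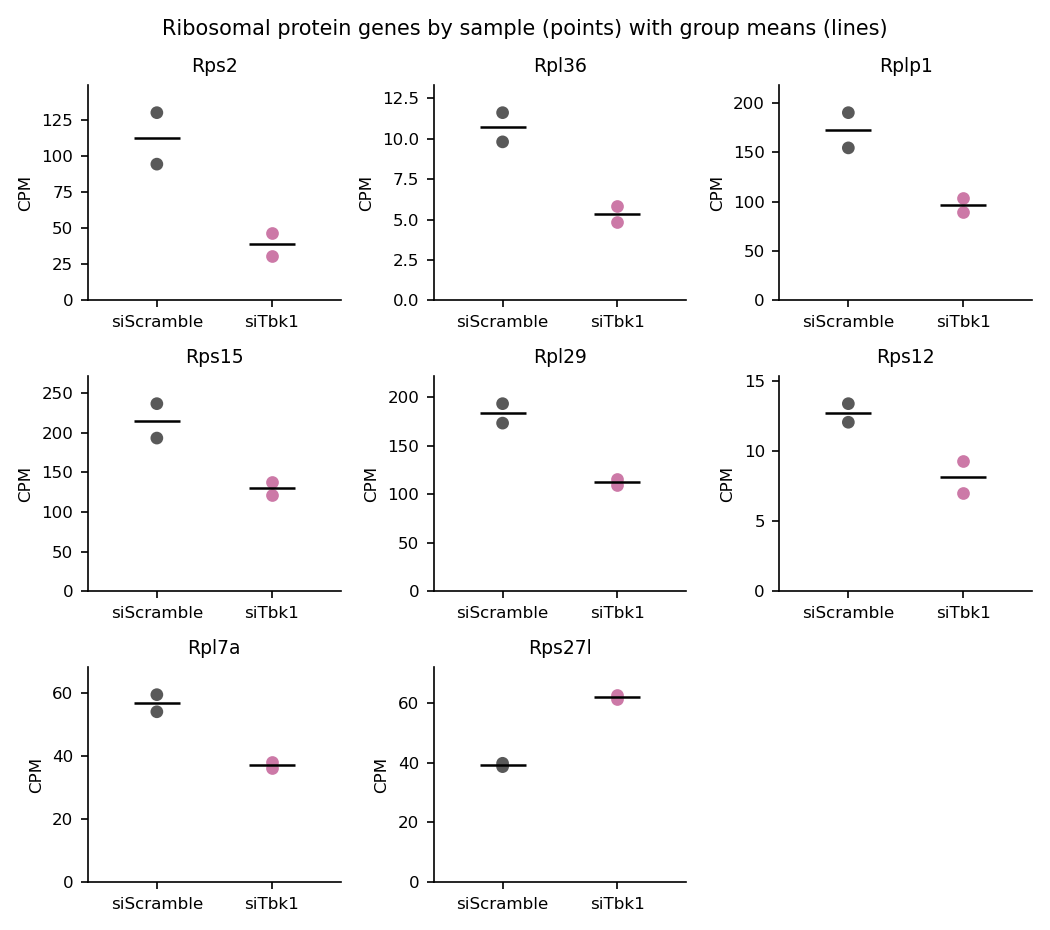
CPM (vertical axis, from 0) of 7 members called lower and the member called higher, with a point for each sample and a line at the mean of each group of 2. The groups are apart in every panel, which largely follows from choosing genes by their calls in the same samples. Rps27l alone is higher after siTbk1, at 62.6 and 61.2 CPM against 38.6 and 39.7 CPM.

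The other members that rose did so by less than the fold limit. Rps3a, a small subunit protein near the mRNA exit, went from 400.4 and 401 CPM to 449 and 501 CPM, a log2 fold change of 0.25 ± 0.059 (adjusted p = 0.0043). Rps24, mutated in Diamond-Blackfan anaemia, was at 137 and 130.1 CPM against 142 and 169 CPM, a log2 fold change of 0.22 ± 0.074 (adjusted p = 0.029). For both, siTbk1 replicate 3 was the highest sample, and without it neither passed (adjusted p of 0.064 for Rps3a and 0.40 for Rps24), which left 2 members that rose. Rps24 also did not pass with library size alone (0.17, adjusted p = 0.079). Rpl5, which binds the 5S ribosomal RNA together with Rpl11, was at 902 and 861 CPM against 999 and 1005 CPM, a log2 fold change of 0.19 ± 0.052 (adjusted p = 0.010). Without siScramble replicate 3 it did not pass (adjusted p = 0.11). Rps20 had the highest fitted log2 fold change, 1.13 ± 0.60, from 0.0625 and 0.227 CPM against 0.361 and 0.239 CPM, and did not pass (adjusted p = 0.14). This row rests on few counts, and its log2 fold change lay between 0.42 and 2.24 when a sample was left out.

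Members with well known roles of their own did not move alike. Rps6, the S6 kinase substrate, was at 404 and 371 CPM in control cells and at 421 and 427 CPM after siTbk1, a log2 fold change of 0.13 ± 0.055 (adjusted p = 0.069). It passed without siScramble replicate 2 (0.19, adjusted p = 0.025) and after the correction for genomic span (0.24, adjusted p = 0.0090). Rpsa, also known as the laminin receptor, fell from 579 and 591 CPM to 419 and 381 CPM, a log2 fold change of -0.55 ± 0.057 (adjusted p = 1.9e-05). Rps27a, which is made as a fusion with ubiquitin, was at 2045 and 1883 CPM against 2106 and 2071 CPM (log2 fold change 0.088 ± 0.056, adjusted p = 0.22), and passed only with the span correction (0.20, adjusted p = 0.036).

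The stalk base protein Rplp0 has whole-number counts and fell from 1770 and 1973 CPM to 1406 and 1288 CPM, a log2 fold change of -0.47 ± 0.065 (adjusted p = 0.00011). Its partner Rplp2 was at 2.54 and 2.95 CPM against 2.13 and 2.54 CPM in its own row and did not pass (-0.24 ± 0.18, adjusted p = 0.29). Rps19, the gene most often mutated in Diamond-Blackfan anaemia, fell from 26.3 and 30.8 CPM to 21.4 and 17.7 CPM, a log2 fold change of -0.53 ± 0.10 (adjusted p = 0.00089). Rps14, linked to the 5q- syndrome of anaemia, fell by less, from 173 and 188 CPM to 145 and 161 CPM (-0.24 ± 0.063, adjusted p = 0.0082), and did not pass without siTbk1 replicate 2 (adjusted p = 0.060) or with the span correction (-0.12, adjusted p = 0.14).

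Rps3, at the mRNA entry beside Rps2, was at 833 and 802 CPM against 745 and 685 CPM, a log2 fold change of -0.19 ± 0.056 (adjusted p = 0.013). It did not pass without siScramble replicate 2 (adjusted p = 0.062) or siTbk1 replicate 3 (adjusted p = 0.13). Rpl3, which reaches towards the peptidyl transferase centre, was at 1097 and 1067 CPM against 978 and 978 CPM, a log2 fold change of -0.15 ± 0.050 (adjusted p = 0.031). Rpl11, the partner of Rpl5, was at 369 and 370.1 CPM against 337 and 336 CPM, a log2 fold change of -0.13 ± 0.049 (adjusted p = 0.040). The fall of these last genes passed only with all 4 samples, since leaving out any sample gave an adjusted p of 0.064 to 0.18 for Rpl3 and of 0.093 to 0.16 for Rpl11. With the span correction, Rps3 (-0.080, adjusted p = 0.30), Rpl3 (-0.089, adjusted p = 0.23) and Rpl11 (-0.024, adjusted p = 0.75) did not pass.

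The large and small subunits were compared next. In the large subunit 22 of 41 tested genes fell and 1 rose, with a median log2 fold change of -0.15, and in the small subunit 16 of 28 fell and 3 rose, with a median of -0.21. Over all tested genes 24.8% fell and 24.4% rose. The summed level of large subunit mRNAs was 18309 and 18754 CPM in control cells and 16608 and 16394 CPM after siTbk1. That of small subunit mRNAs was 9983 and 9880 CPM against 9041 and 8675 CPM. The large-to-small ratio of counts was 1.83 (replicate 2) and 1.90 (replicate 3) in control cells, where siTbk1-treated cells had 1.84 (replicate 2) and 1.89 (replicate 3). The groups overlapped, and the higher ratio was that of replicate 3 in both. The difference between the subunit medians was not tested, because genes are not replicates.

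Counts with a fractional part, which arise where a counter divides reads among several places, were frequent among the members. In 65 of 72 members (90.3%) at least 1 sample had a count that differed from the nearest whole number by over 0.01, against 25.8% of all listed genes. Of the 63 tested members with fractional counts, 36 fell and 3 rose, with a median log2 fold change of -0.21. Of the 6 tested members with whole-number counts, Rplp0 and Rpl18 fell, Rps27l rose and Rpl23, Rpl36a and Rpl41 did not pass, with a median of -0.064. This median was -0.11 with library size alone, -0.10 to -0.042 when a sample was left out and 0.046 with the span correction. Rpl18 was at 346 and 352 CPM against 270 and 246 CPM, a log2 fold change of -0.44 ± 0.056 (adjusted p = 7.5e-05). Members with whole-number counts took 0.344% and 0.377% of all counts in control cells and 0.289% and 0.282% after siTbk1, while members with fractional counts took 2.52% and 2.55% against 2.24% and 2.18%. Over all tested genes, 24.1% of those with fractional counts fell and 25% of those with whole-number counts. With 6 against 63 members, the difference between their medians was not tested.

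Further counts stood on rows that carry a ribosomal protein symbol with a "like" or pseudogene suffix. Such copies numbered 54, of which 45 belonged to 29 members, and 35 copies of 26 members were on the same chromosome in both annotations or could not be compared. When these 35 were added to their member, 11 members held most of their summed counts in copies. The summed level of the members with copies was 37150 and 37528 CPM in control cells and 33856 and 33286 CPM after siTbk1. In this form 38 of 70 tested members fell and 4 rose (24.9% and 24.5% of all genes tested this way), and 36 of those that fell were also lower in their own row. The log2 fold change was below 0 for 55 of the 70 (49.3% of all genes). Both siTbk1-treated samples were below both control samples for 43 (38% of all genes) and above for 8 (38.8% of all genes). The median was -0.20, with 7 called lower and 1 higher (6.21% and 4.83% of all genes).

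Named results changed with the copies. For Rps2 the member row held 5.84% and 7.53% of the summed counts in siScramble samples and 3.83% and 2.62% in siTbk1-treated samples. The sum was at 1613 and 1724 CPM in control cells and at 1223 and 1174 CPM after siTbk1, and the log2 fold change was -0.48 ± 0.055 (adjusted p = 3.4e-05), so Rps2 still fell but was no longer past the fold limit. Its copies Rps2-ps6 (rn6 chr9:17211759-17212629) and Rps2-ps43 (rn6 chr3:148283209-148284142) had log2 fold changes of -0.40 and -0.45. Rplp2 became a call, at 303 and 344 CPM against 231 and 190 CPM (-0.62 ± 0.084, adjusted p = 9.2e-05). The row Rplp2l2 gave 298 and 337 CPM of this in control cells and 226 and 184 CPM after siTbk1. With this sum, the mRNA levels of all 3 stalk proteins, Rplp0, Rplp1 and Rplp2, were lower.

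Rps4x turned direction. Its row alone was at 21.2 and 24.4 CPM against 16.2 and 17.7 CPM (-0.43 ± 0.088, adjusted p = 0.0016), and with the copy Rps4x-ps9 the level was 2059 and 1929 CPM against 2011 and 2111 CPM (0.048 ± 0.056, adjusted p = 0.51). Rps24 kept its direction, with a sum of 1413 and 1384 CPM against 1674 and 1756 CPM (0.29 ± 0.053, adjusted p = 0.00063). Rps19, whose own row held 3.45% to 4.14% of the sum, fell from 640 and 742 CPM to 528 and 513 CPM with its copies (-0.41 ± 0.066, adjusted p = 0.00032). Rps12 fell by less than the fold limit (-0.49), and Rps29, too low to test alone, fell by 0.56 on the log2 scale, from 199.7 and 244 CPM to 160 and 142 CPM. The copy Rps20-ps12 was at 911 and 915 CPM against 733 and 678 CPM (-0.37 ± 0.055) but lies on another chromosome in the newer annotation and was left out of the sums.

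**Figure D4:**
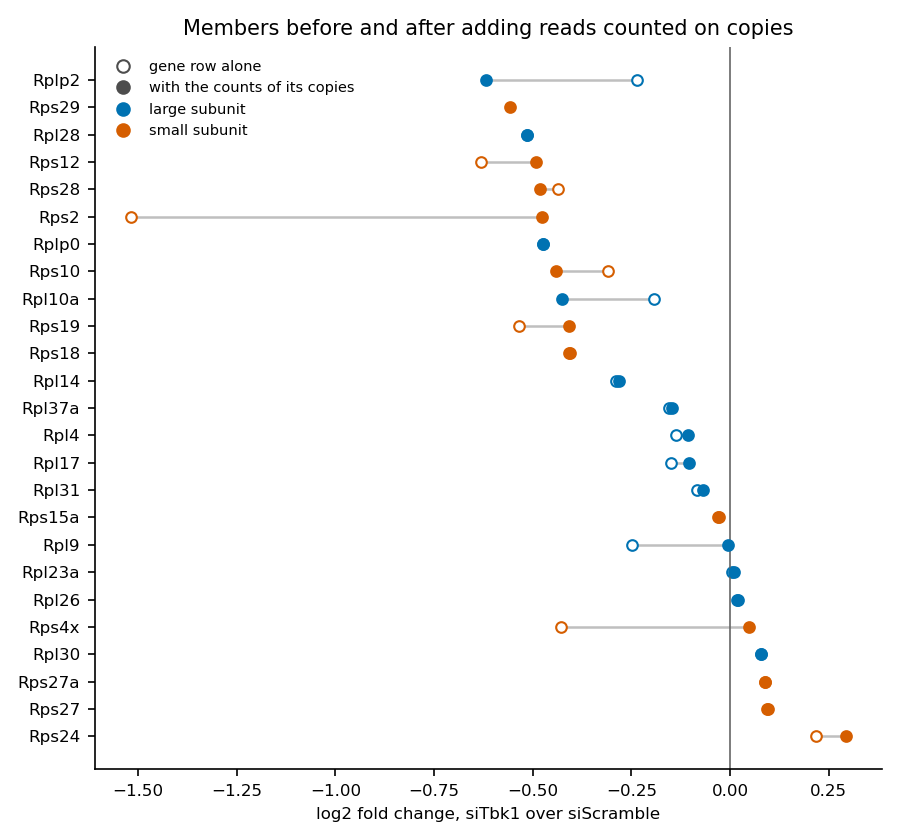
Log2 fold change (siTbk1 over siScramble, horizontal axis) of 25 members with copies, for the gene row alone (open points) and with the counts of the copies added (filled points), coloured by subunit. Rps2 moves from -1.52 to -0.48, Rplp2 from -0.24 to -0.62 and Rps4x from -0.43 to 0.048, and Rps29 has no open point because its own row was not tested.

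Outside the member rule, the ribosome components Fau and Rack1 fell, while the diverged paralogs Rpl7l1 and Rpl22l1 rose. Fau, a fusion precursor of a small subunit protein, fell by 0.56 on the log2 scale, and Rack1, a signalling scaffold on the small subunit, fell by 0.29. The diverged paralogs stood differently. Rpl7l1 rose from 46.6 and 47.1 CPM to 60.6 and 60.7 CPM (0.37 ± 0.058, adjusted p = 0.00025), while Rpl7 was at 1115 and 1052 CPM against 1046 and 1070 CPM (-0.034, adjusted p = 0.62). Rpl22l1 rose by a log2 fold change of 0.16 (adjusted p = 0.040). Rpl36a (-0.0067) and Rpl36al (0.052) did not pass, and neither did Rpl10 (-0.079) and Rpl26 (0.020). Rpl3l and Rpl3 could not be compared, because Rpl3l was too low to test.

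Members with and without a pyrimidine run at or near the annotated start were read side by side, without a test of the difference. Of the 18 tested members whose mRNA began with C and at least 4 further pyrimidines, 12 fell and 1 rose, with a median log2 fold change of -0.26. Of the 38 others in the promoter table, 21 fell and 3 rose, with a median of -0.17. These others included Rps2, Rpl29 and Rps24, whose long runs in the windows above do not meet this rule. A run of at least 7 pyrimidines that began with C within 20 bases of the start was present in 41 tested members. Of these, 24 fell and 3 rose, with a median of -0.24. Of the 15 without it, 9 fell and 1 rose, with a median of -0.15. Rps27l, without a run under either rule, and Rps3a, with one under each, both rose. Among 14 tested TOP mRNAs that encode no ribosomal protein, 5 fell, 2 rose and 7 did not pass, with a median of -0.064. Thus 35.7% of them fell and 14.3% rose, against 24.8% and 24.4% of all tested genes. Eef2, the elongation factor that moves the ribosome along the mRNA, fell from 3965 and 4209 CPM to 2771 and 2424 CPM (-0.65 ± 0.067, adjusted p = 1.8e-05). Eef1d (-0.31), Eef1g (-0.25), Eif3l (-0.23) and Eif4a2 (-0.21) fell by less than the fold limit, whereas Nap1l1 (0.30) and Tpt1 (0.22) rose.

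Genes that act on ribosomal proteins were read beside the members. Of 9 tested chaperones and assembly partners, 2 fell (22.2%, near the 24.8% of all tested genes) and the remaining 7 did not pass. Grwd1, the chaperone of Rpl3, fell from 27.6 and 30.2 CPM to 16.5 and 15.4 CPM (-0.85 ± 0.079, adjusted p = 8.9e-06), and Aamp fell by 0.35 on the log2 scale. Pdcd2, Pdcd2l and Prmt3, partners of Rps2, and Ltv1, Bccip, Heatr3 and Nap1l4 had log2 fold changes between -0.12 and 0.11. Among 7 tested regulators of TOP mRNA translation and of Rps6 phosphorylation, 2 fell and 2 rose. These are 28.6% in each direction, near the 24.8% and 24.4% of all tested genes. Within this list the S6 kinase genes parted. Rps6kb2 fell from 23.7 and 23.3 CPM to 16.0 and 15.3 CPM (-0.59 ± 0.075, adjusted p = 7.2e-05) and Rps6kb1 rose from 41.0 and 40.7 CPM to 46.9 and 48.3 CPM (0.22 ± 0.060, adjusted p = 0.0098). Rptor fell by 0.23, Rheb rose by 0.15, and Larp1 (0.022), Mtor (-0.043) and Eif4ebp2 (-0.033) did not pass.

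Free ribosomal proteins such as Rpl5 and Rpl11 bind the ubiquitin ligase Mdm2, and genes tied to this route were read beside them. Mdm4 (0.58 ± 0.076), Ccng1 (0.39 ± 0.056) and Cdkn1a (0.32 ± 0.059) rose, Zmat3 (-0.45 ± 0.11) and Phlda3 (-0.25 ± 0.061) fell, and Mdm2 (-0.0060) and Sesn1 (-0.17) did not pass. Genes of this list therefore moved in both directions, and Rps27l rose as Ccng1 and Cdkn1a did.

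The genes of the mitochondrial ribosome gave a second ribosome to read the members against. Of 73 tested, 39.7% fell and 5.48% rose, with a median log2 fold change of -0.079, and whether this differs from the cytosolic members was not tested. All 10 β-cell markers were tested, and 5 fell, among them Ins1, Ins2, Slc2a2 and Pdx1, while Iapp and Nkx6-1 rose. Thus 50% of the markers fell and 20% rose, against 24.8% and 24.4% of all tested genes. The summed level of these markers was 19010 to 19940 CPM in control cells and 14610 to 16320 CPM after siTbk1. Ins1 carried this fall, at 10380 and 11090 CPM against 7520 and 6244 CPM. The other 9 markers summed to 8626 and 8844 CPM against 8803 and 8370 CPM, so the groups overlapped. This sum does not mean that each marker held its level. Within it, Slc2a2 fell from 1310 and 1218 CPM to 994 and 967 CPM. Iapp rose from 922 and 988 CPM to 1210 and 1267 CPM. The part of these markers in the ribosomal protein result was not tested. Of 9 markers of other islet or other cells only Gcg was tested, at 1389 and 1313 CPM against 815 and 878 CPM, and Sst, Ppy, Ptprc, Pecam1, Col1a1, Col1a2, Cpa1 and Prss1 were not analysed here.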

How the data were processed

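Polyadenylated RNA of 4 samples (siScramble 2 and 3, siTbk1 2 and 3, 36 h) was sequenced. The values deposited by the authors are estimated counts per gene, unscaled, with gene positions. The submitters' processing notes name STAR 2.6.1d, Partek and the rn6 build without their roles, and how reads matching several genes were divided is not given in the sources used here. Counts were rounded, filtered with filterByExpr (minimum count 10), scaled with TMM (factors 0.982 to 1.02) and tested in edgeR 4.0.16 by quasi-likelihood (R 4.3.3, limma 3.58.1), treatment being the only factor. Adjusted p-values are Benjamini-Hochberg values over all 13953 tested genes. A gene rose or fell at an adjusted p under 0.05 and was called at a fold change of at least 1.5 as well. CPM values use TMM-scaled libraries of 1000000 counts, and each SE is the log2 fold change divided by the square root of F.

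Members, lists and named genes were chosen with earlier results of these data known. Named were the called members, the 5 largest changes in each direction, members with set roles, listed paralog pairs, and the genes of the other lists. Some genes of these lists are not reported here. Rpl18 and the copies were named after their values were seen. Copies were found by symbol, gene ID or synonym in RefSeq (GRCr8), and 10 copies on differing chromosomes were left out of the sums. Adding them was an alternative chosen after seeing the data. The scripts were tested on simulated data. Alternatives were a replicate block, the likelihood ratio test, DESeq2 1.42.0, limma-voom, glmTreat, other scalings and filters, a span correction by loess, and leaving out each sample. Figures were drawn with matplotlib in Python. With 2 samples a group the number of samples limits the precision of every comparison, and low counts limit it further for rows such as Rps20.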

Additional observations from a re-analysis of the deposited data

How the results depend on the processing

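Under the likelihood ratio test, limma-voom, DESeq2, upper quartile or median-of-ratios scaling, TMM factors from other genes, and either count filter, between 38 and 39 members fell and 4 rose. Library size alone gave 40 that fell and 3 that rose, with medians of -0.24 (all members), -0.20 (large subunit), -0.25 (small subunit), -0.25 (fractional counts) and -0.11 (whole-number counts), while the median of all genes moved to -0.040. Removing the trend along genomic span gave medians of -0.089, -0.079, -0.096 and -0.094 for the first 4 groups, 0.046 for whole-number counts, which turned its direction, and 7 members that rose. With the replicate block added to the span correction the medians were -0.089, -0.079, -0.097 and -0.092, again 0.046 for whole-number counts, and 25 members fell. The cause of these shifts was not tested. Testing against a fold of 1.5 with glmTreat, 2 members were called lower and 0 higher (1 was higher at an unadjusted p under 0.05, and 101 of all genes, 0.724%, were called lower this way), where the other tools called 1 higher and 8 or 9 lower. The ratio of the share of counts was 0.792 for members without fractional counts. Rplp0, at 1770 and 1973 CPM in control cells, had by far the highest level among these and weighs most in this ratio. Rpl10 (0.031, and 0.033 with the block), Rpl36a (0.10 and 0.10) and Rpl7 (0.067 and 0.068) turned direction with the span correction, Rpl26 with library size alone (-0.027), and Rps4x with its copies added (0.048). None of these 5 passed in that form.

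Leaving out each sample gave medians between -0.23 and -0.16 (all members), -0.23 and -0.15 (large), -0.27 and -0.20 (small), -0.23 and -0.16 (fractional) and -0.10 and -0.042 (whole-number), with 32 to 35 members that fell, 2 to 5 that rose and 6 to 11 called lower. In these fits the lone sample of a group is assumed to vary like the other group. Without a sample, Rpl26 lay between -0.0060 and 0.047, Rpl36a between -0.067 and 0.039 and Rpl7 between -0.076 and 0.0084, on both sides of 0. The labels do not say what the replicate numbers mark. Deviations of same-numbered samples correlated at 0.0041 (Pearson) and -0.20 (Spearman) over all genes, while the totals and the large-to-small ratio went with the number, and whether same-numbered samples share an origin was not tested. The replicate block gave 33 members that fell, all among the 38, and 4 that rose, with 9 called lower, and among the named members Rpl3 and Rpl11 did not pass with it (adjusted p of 0.10 and 0.14). A crossed pairing, chosen after seeing the data, gave 39 that fell and 6 that rose. Members with a mean of at least 10 CPM, likewise added, gave 37 and 4.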
